A study of Mus musculus with 12 samples.

Results

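Neuronal RNA-binding and splicing regulators were examined through 10 genes of 5 families: Rbfox1, Rbfox2, Rbfox3, Elavl2, Elavl3, Elavl4, Nova1, Celf2, Celf4, and Msi2. Their peaks were all regions that the authors' annotation assigned to 1 of these symbols, which gave 198 of 102563 regions in all. Of these, 69 of 55085 regions carried 5-methylcytosine (5mC) and 129 of 47478 carried 5-hydroxymethylcytosine (5hmC). Each mark had peaks at 9 of the 10 genes, as Celf2 had no 5mC peak and Elavl2 had no 5hmC peak.

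The cells were FAC-sorted from the cortex of E14.5 mouse embryos that carried both the Btg2RFP and the Tubb3GFP reporter. Proliferating progenitors (PP) were negative for both reporters, differentiative progenitors (DP) were RFP+/GFP-, and neurons were GFP+ irrespective of RFP, so each population was defined by reporter fluorescence and could hold any cell that met its gate. Barcoded DNA of the 3 cell types, 300 ng of each, was mixed and immunoprecipitated together, and 12 samples are listed, 6 of them IP and 6 input, with 1 of either kind per cell type and mark. The tables hold 1 mean level per cell type and peak, without replicate values, counts or depth, so that the values below have no replicate error and no difference was tested.

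RNA-binding proteins decide which exons of a transcript are retained, how long the transcript lasts, and how much of it is translated. Rbfox, Nova, and Celf proteins are known as regulators of alternative splicing in neurons, and the neuronal Elavl (Hu) proteins bind U-rich sequences and stabilize their targets. Musashi proteins such as Msi2 are known as translational regulators of stem and progenitor cells. 5mC is the classic mark of methylated CpG sites, and 5hmC is formed from it by the Tet enzymes and is abundant in neurons.

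The expression columns of the tables come from an earlier RNA-seq study of the authors and not from the cells profiled here, so marker genes describe that study's populations and do not test the sort of these samples. Sox2, Pax6, Hes5, and Nes were highest in PP, Btg2, Eomes, and Neurog2 were highest in DP, and Tubb3, Dcx, and Neurod6 were highest in neurons, while Map2 had no peak and thus no value. Btg2 and Tubb3 are also the reporter genes that set the gates. Of 5 markers of other cells, Gad2 and Aif1 likewise had no peak. Gad1, a gene of GABAergic interneurons, was listed at 32.3, 41.9, and 3055.2 in PP, DP, and neurons, which is the direction of most genes described here, and its part in their expression was not tested. Pecam1, of endothelial cells, was at most 78.7 and Olig2, of the oligodendrocyte lineage, at most 291.6 in any cell type.

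A single known promoter of these genes overlapped a peak and is therefore shown. The 250 bases before a RefSeq start of Nova1 (assembly GRCm38.p6, chr12, minus strand) were compared with the 5hmC peak at chr12:46818907-46819093, whose center was 0.225 kb upstream of the start annotated by the authors. The peak lay inside the full RefSeq span of the gene (chr12:46697895-46819480). The sequence is given 5′ to 3′ on the strand of the gene, and capitals mark the 111 bases shared with the peak.

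Nova1: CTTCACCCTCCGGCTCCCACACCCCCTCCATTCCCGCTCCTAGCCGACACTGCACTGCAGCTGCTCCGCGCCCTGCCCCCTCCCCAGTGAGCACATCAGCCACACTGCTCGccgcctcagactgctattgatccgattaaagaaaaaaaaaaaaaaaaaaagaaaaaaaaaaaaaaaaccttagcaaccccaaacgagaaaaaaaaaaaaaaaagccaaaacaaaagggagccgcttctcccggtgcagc

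The shared stretch held 6 of the 11 CpG sites of these 250 bases. Whole windows of 300 bases, with 50 bases after the start included, held a median of 7 CpG sites over 32851 RefSeq promoters, and the Nova1 window held 14, with 63.7% of windows holding fewer. The E-box CAGCTG, which reads the same on both strands and is a form of CANNTG, was found once, starting at position -193 from the start and in the shared stretch. CAGATG was not found on either strand. Over all windows, 72.3% held CANNTG, 16.3% held CAGCTG, and 17.2% held CAGATG. This peak had 5hmC levels of 4.29, 4.05, and 3.86 in PP, DP, and neurons, in log2 units explained below.

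Expression, from that earlier RNA-seq, is given without a named scale, so levels were compared only within a gene. In such sorted populations, fewer expressing cells and less RNA per cell cannot be told apart. Of the 10 genes, 8 were at least 1.5-fold higher in neurons than in PP and 2 were at least 1.5-fold lower, against 29.9% and 31.2% of 16293 genes with a peak. Expression was highest in neurons for 6 genes, in DP for 3, and in PP for 1.

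**Figure D1:**
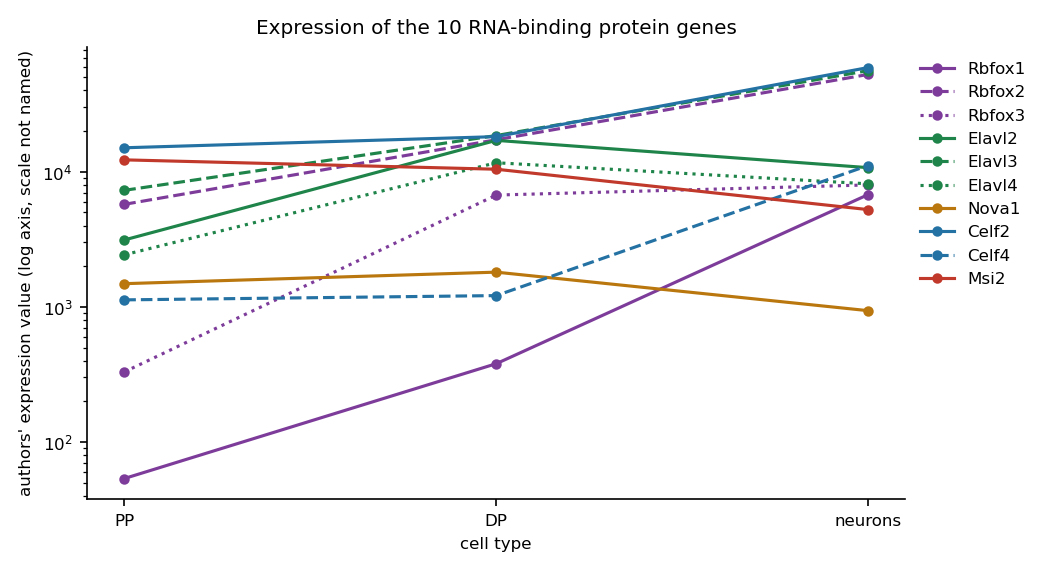
Expression of each gene (authors' mean, log axis, scale not named) in PP, DP, and neurons, with 1 color per family and no error bars since no replicate values are given. Rbfox1 climbs from 53.6 to 6776.4, while Nova1 and Msi2 end below their PP value and Elavl2 and Elavl4 are highest in DP.

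Rbfox1, whose product controls splicing of synaptic and ion channel transcripts, was listed at 53.6, 379.4, and 6776.4 in PP, DP, and neurons, the order kept for all values below. This was 124-fold between PP and neurons, and most of it fell after the DP stage, with 6.97-fold from PP to DP and 17.8-fold from DP to neurons. Rbfox3, which encodes the neuronal antigen NeuN, had the other order, at 329.9, 6720, and 7986.8, that is 20.3-fold from PP to DP and 1.19-fold from DP to neurons. Rbfox2, the more widely expressed paralog, was already at 5736.5 in PP and then at 17247 and 52527.7, about 3-fold at each step (3.01 and 3.05).

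The Elavl genes separated into 2 courses. Elavl3 (HuC) was listed at 7283.5, 18530.3, and 56043.4, and was thus highest in neurons. Elavl2 (HuB) was at 3126.4, 17071.8, and 10723.3, and Elavl4 (HuD) at 2427.3, 11658.1, and 8137.9. Both were highest in DP and remained above their PP value in neurons, by 3.43-fold and 3.35-fold.

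Of the Celf genes, Celf2 was listed at 15045, 18192.9, and 59051, and Celf4 at 1126.2, 1211.2, and 11122.5. Both differed little between PP and DP (1.21-fold and 1.08-fold) and were 3.25-fold and 9.18-fold higher in neurons than in DP. The genes that were lower in neurons were Nova1, a splicing regulator of inhibitory synapse transcripts, and Msi2. Nova1 was at 1484.2, 1806.4, and 936.9, which is 1.58-fold lower in neurons than in PP and just past the 1.5-fold limit. Msi2 was at 12246.5, 10439.1, and 5245.4, which is 2.33-fold lower.

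Levels of 5mC and 5hmC are the authors' mean log2 values. A change is the later minus the earlier cell type, less the median of that difference over all peaks of the mark, and a change of at least 1.5-fold (0.58 on the log2 scale) is called a gain or a loss. This centering mattered for 5mC, whose median over all peaks was shifted by -0.18 from DP to neurons and by -0.17 from PP to neurons. All changes below are relative to it.

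Of the 69 peaks of 5mC, 9 were lost from PP to DP (13.0%, against 5.44% of all 5mC peaks) and 3 gained (4.35%, against 4.60%). From DP to neurons, 13 were lost (18.8%, against 9.36%) and 5 gained (7.25%, against 5.12%). From PP to neurons, 17 were lost (24.6%, against 10.2%) and 4 gained (5.80%, against 5.00%). With all 10 genes pooled, losses of 5mC were thus a larger share than over all peaks at each step.

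These shares differed without Rbfox1 and with the level and position of the peaks. Rbfox1 held 11 of the 17 losses from PP to neurons. Without it 4 of 40 peaks were lost from PP to DP, 4 of 40 from DP to neurons (close to the 9.36% of all peaks), and 6 of 40 from PP to neurons (15.0%). The 4 gains from PP to neurons were all in other genes, and were then 4 of 40 peaks, against 5.00% of all. The median 5mC level of the 69 peaks was 4.41, against 4.97 over all peaks. Among peaks under the median level of all peaks, 16 of 46 were lost (34.8%, against 16.5% of all such peaks), and above it 1 of 23 (4.35%, against 3.99%). From PP to DP none of these 23 peaks was lost. Among peaks at least 50 kb inside a gene by the authors' annotation, 6 of 28 were lost in these genes (21.4%) and 14.2% in other genes. In these genes 4 were gained (14.3%), against 5.13% in other genes. This class left out 16 peaks of Rbfox1, 5 of them lost, that were labeled upstream but lay inside the RefSeq gene.

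Of the 129 peaks of 5hmC, 16 were gained from PP to DP (12.4%, against 11.2% of all 5hmC peaks) and 7 lost (5.43%, against 4.68%). From DP to neurons, 28 were gained (21.7%, against 16.5%) and 4 lost (3.10%, against 7.07%). From PP to neurons, 34 were gained (26.4%, against 22.1%) and 11 lost (8.53%, against 7.71%). The pooled share of gains was close to that of all peaks from PP to DP and somewhat larger in the steps that end in neurons. Here Rbfox1 weighed the other way, since 24 of the 62 peaks of the other genes were gained from PP to neurons (38.7%), against 10 of 67 in Rbfox1. At least 50 kb inside a gene by the authors' annotation, 14 of 55 peaks were gained (25.5%), and 27.8% in other genes. This again left out Rbfox1 peaks labeled upstream but inside the RefSeq gene, 33 in number, of which 4 were gained.

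**Figure D2:**
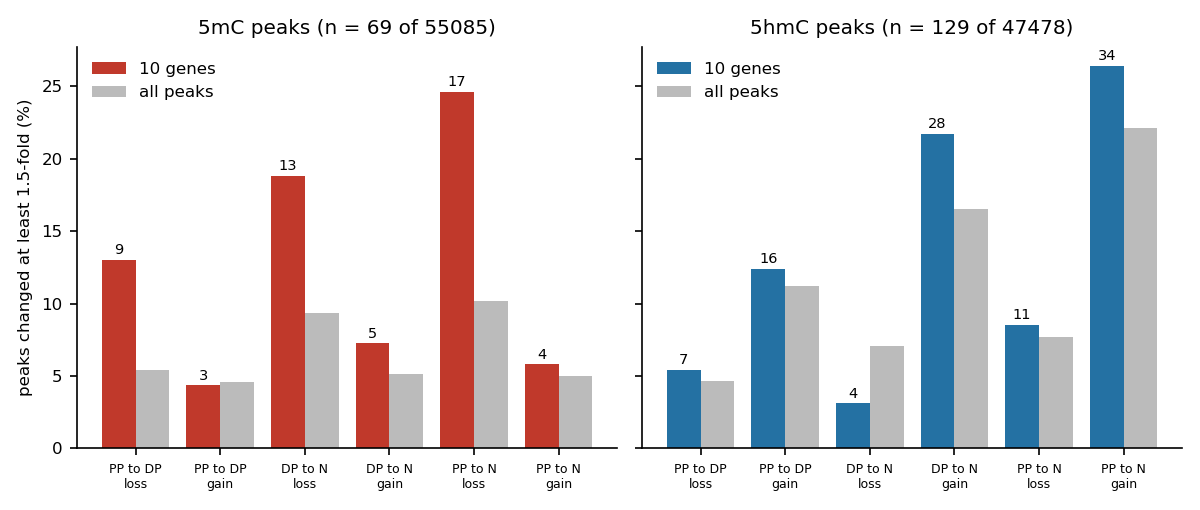
Share of peaks with a change of at least 1.5-fold in each step (y axis, %), for the 10 genes (colored bars, with the number of peaks above) and for all peaks of the mark (grey bars). Losses of 5mC reach 24.6% against 10.2% from PP to neurons, whereas gains of 5hmC reach 26.4% against 22.1%.

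The peaks that gained 5hmC had median levels of 3.83, 4.21, and 5.22, and the other 95 peaks had 5.11, 4.95, and 4.89. A gain is defined from the PP and neuron levels, so that a low level in PP is partly given by the choice, and over the whole series gaining peaks had 3.77 in PP and the others 4.86. The median gaining peak had covered 27.2% of its change by the DP stage, against 39.5% over all 10484 gaining peaks of the series. Peaks that lost 5mC had median levels of 4.69, 4.30, and 3.44, and the median share reached in DP was 37.2%, against 25.4% over all 5643 losing peaks.

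**Figure D3:**
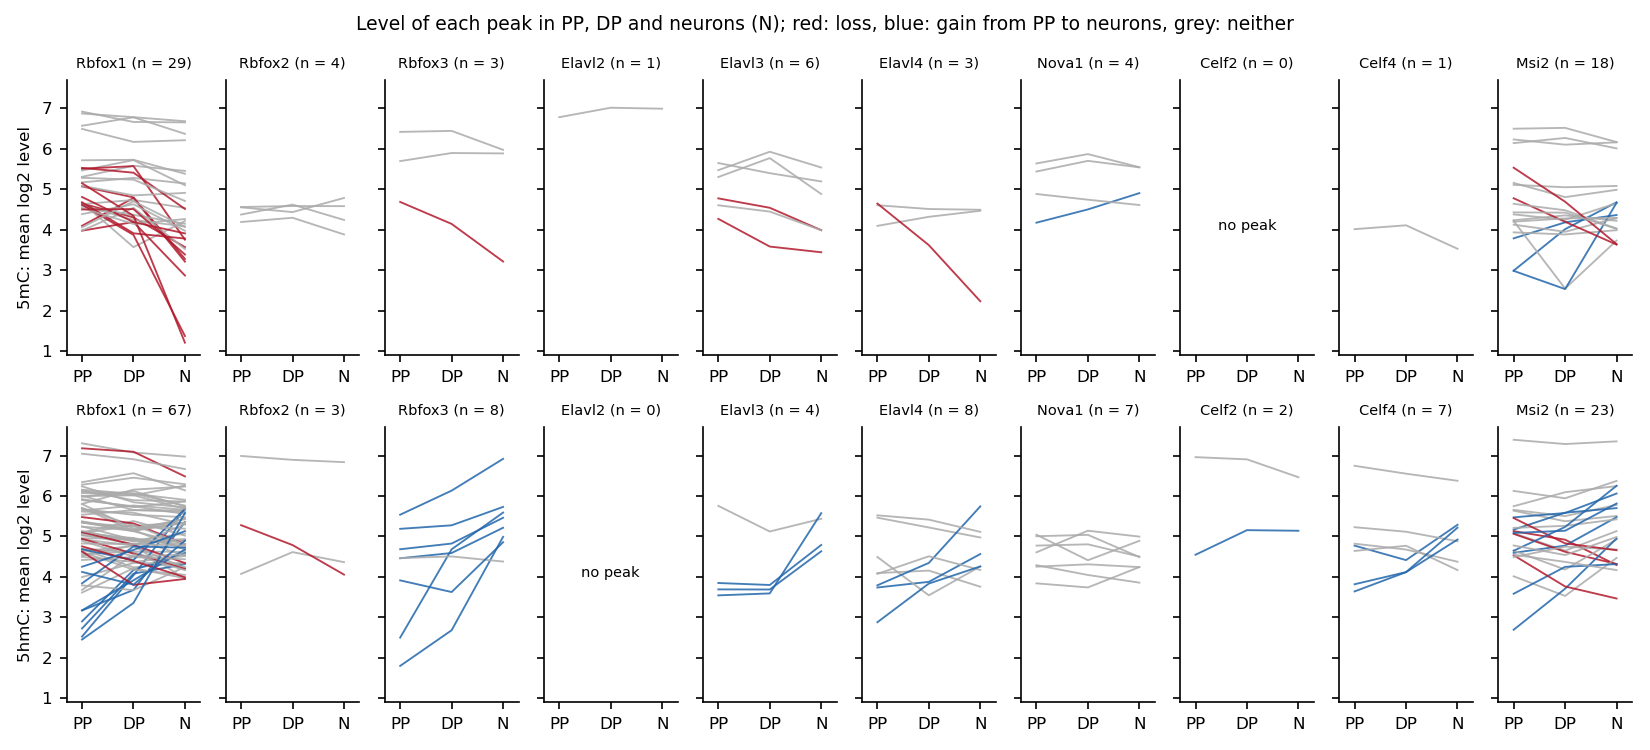
Mean log2 level of every peak in PP, DP, and neurons (N), with 5mC in the top row and 5hmC in the bottom row, 1 panel per gene and 1 line per peak. Red lines are losses, blue lines gains from PP to neurons, and grey lines neither; 7 of the 8 lines of Rbfox3 5hmC are blue, and the steepest red lines are 5mC peaks of Rbfox1.

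Rbfox1 had 29 peaks of 5mC and 67 of 5hmC, the most of the 10 genes. It is a very long gene, and RefSeq gives it a span of 1528 kb on chromosome 16 (chr16:5884793-7412480). The authors' annotation used a start inside this span, so that 16 peaks of 5mC and 33 of 5hmC labeled as upstream all lay within the RefSeq gene. Distances below are from the authors' start.

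The deepest 5mC loss of all 10 genes was in Rbfox1 at chr16:7044932-7045071, 236 kb inside, with levels of 5.15, 4.34, and 1.20, a change of -3.77. A peak 7.1 kb further on, at chr16:7052171-7052274, had levels of 4.62, 3.87, and 1.37, a change of -3.08. These neighbors thus had like courses, with most of the difference after the DP stage. Both were among the lowest 5mC peaks, with mean levels above those of 1.30% and 0.470% of all 5mC peaks. Whether such low levels enlarge log2 changes was not tested. Another pair of neighbors lay 449 and 452 kb upstream of the annotated start, 2.25 kb apart, with changes of -1.62 and -1.58. No 5mC peak of Rbfox1 was gained from PP to neurons, and 18 of the 29 were neither lost nor gained.

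The 5hmC peaks of Rbfox1 moved both ways, with 10 gains and 6 losses from PP to neurons. The largest gain was at chr16:6359939-6360061, 449 kb upstream of the annotated start, with levels of 2.52, 4.04, and 5.68, a change of 3.24. The next, at chr16:7352922-7353034 and 544 kb inside, had 2.45, 3.36, and 5.58, a change of 3.21. All 6 losses were small, between -0.59 and -0.68. Most peaks were neither gained nor lost, and the highest of them, at chr16:6460657-6460817, had levels of 7.30, 7.08, and 6.98. The highest 5mC peak, at chr16:6718536-6718677, was not called either, with 6.87, 6.78, and 6.68.

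Rbfox3 had 8 peaks of 5hmC, and 7 of them were gained from PP to neurons with none lost. They lay from 26.2 kb upstream to 20.0 kb inside of the start. The largest gain was at chr11:118899965-118900073, 11.6 kb inside, with levels of 1.80, 2.68, and 4.99, a change of 3.27. This was a low peak, with a mean level above that of 1.59% of all 5hmC peaks. At chr11:118905919-118906101, 5.59 kb inside, the levels were 2.50, 4.68, and 5.59, a change of 3.17. These neighbors differed in timing, as the first changed by 0.89 from PP to DP and by 2.33 from DP to neurons, and the second by 2.19 and 0.93. The remaining 5 gains were between 0.62 and 1.46, the latter at the highest peak (chr11:118891506-118891654) with 5.54, 6.13, and 6.92. Expression of Rbfox3, in contrast, was almost complete in DP.

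Of the 3 peaks of 5mC in Rbfox3, 1 was lost, at chr11:118901569-118901677 and 9.97 kb inside, between the 2 largest gains of 5hmC. Its levels were 4.69, 4.14, and 3.21, a change of -1.30. The highest 5mC peak of the gene, at chr11:118897908-118898062, had levels of 6.42, 6.44, and 5.97 and was not called.

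**Figure D4:**
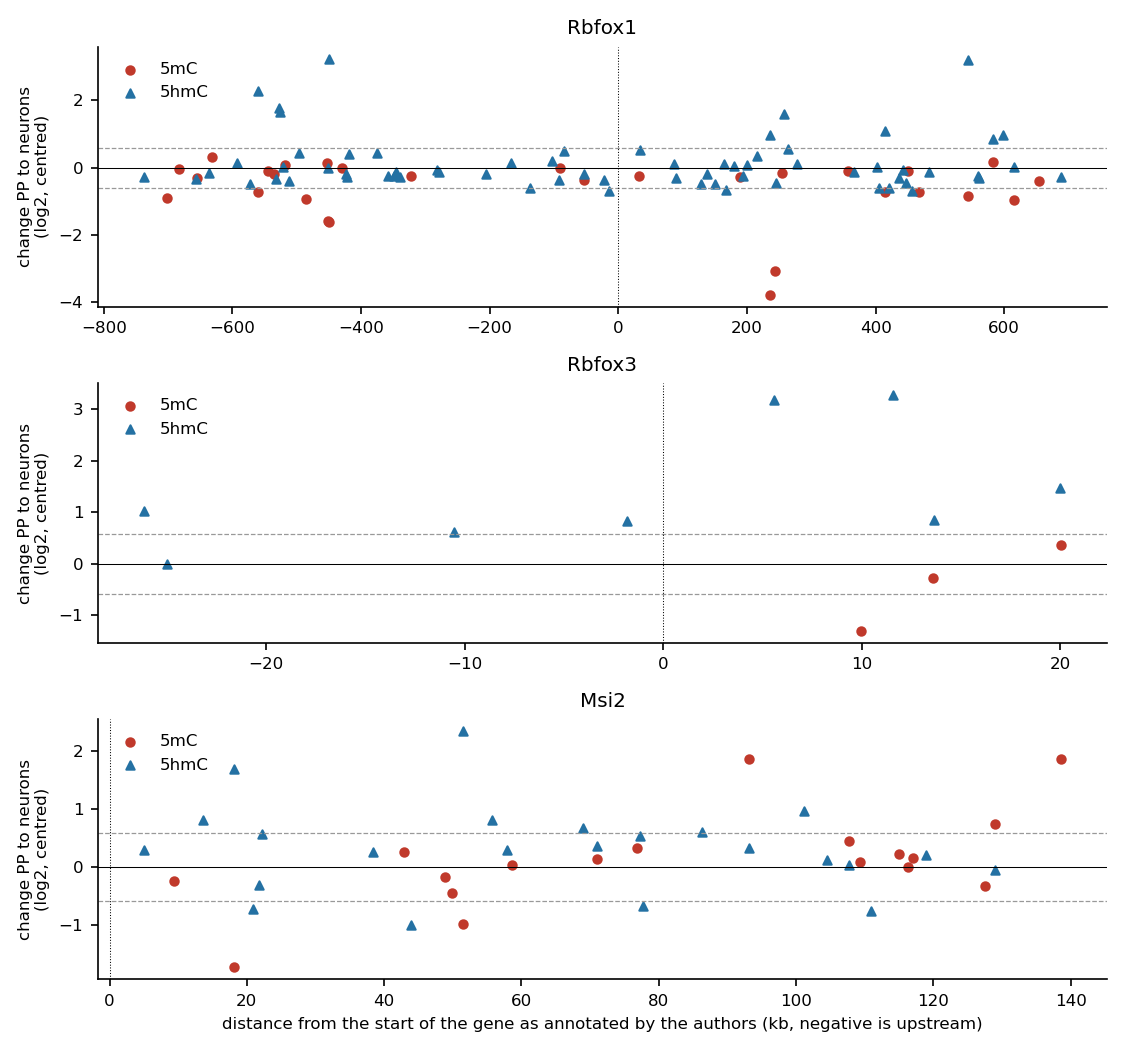
Change in 5mC (circles) and 5hmC (triangles) from PP to neurons (y axis, log2, centered) against distance from the annotated start (x axis, kb) for Rbfox1, Rbfox3, and Msi2. Dashed lines mark 1.5-fold; the deepest circles of Rbfox1 lie 236 and 243 kb inside, and the gains of Rbfox3 lie within 26.2 kb of the start.

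Rbfox2 differed from its paralogs in these tables, as all 4 peaks of 5mC and all 3 of 5hmC lay upstream, from 15.0 to 40.0 kb before the start and outside the RefSeq gene. None of its 5mC peaks was gained or lost. The largest 5mC change was 0.40, at chr15:77323412-77323618, with levels of 4.55, 4.43, and 4.78. A single 5hmC peak was lost, at chr15:77332420-77332542, with levels of 5.28, 4.79, and 4.06, and its change of -1.14 was the largest 5hmC loss of the 10 genes. The highest 5hmC peak, 26.9 kb upstream, had levels of 6.99, 6.90, and 6.84.

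Of the Elavl genes, Elavl3 gained 5hmC at 3 of 4 peaks and lost 5mC at 2 of 6. The gains followed the DP stage. At chr9:22049221-22049353, 2.74 kb inside, the 5hmC levels were 3.54, 3.59, and 5.58, a change of 2.11. A peak 546 bp away had 3.69, 3.69, and 4.63. The highest 5hmC peak, at chr9:22030440-22030613, had 5.76, 5.12, and 5.44 and was the 1 peak without a gain. The larger 5mC loss, at chr9:22036666-22036831, had 4.27, 3.58, and 3.44, a change of -0.65. The other lay 3.71 kb upstream, with a change of -0.62. The highest 5mC peak (chr9:22031633-22031766) had 5.47, 5.93, and 5.54.

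Elavl4 had 3 peaks of 5mC and 8 of 5hmC. Its largest 5mC change was a loss at chr4:110306741-110306870, 45.1 kb inside, with levels of 4.65, 3.62, and 2.23. The change of -2.25 was spread over both steps (-1.02 and -1.21). The mean level of this peak was above that of 0.986% of all 5mC peaks. The largest of 3 gains of 5hmC, at chr4:110281197-110281368, had 3.79, 4.35, and 5.74, a change of 2.03. The highest peaks of both marks were not called, with 5mC at 4.60, 4.51, and 4.49 (145 kb inside) and 5hmC at 5.52, 5.42, and 5.11 (43.6 kb inside). Elavl2 had a single peak, of 5mC and 13.3 kb upstream, with levels of 6.78, 7.02, and 6.99 and no call.

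Nova1 had neither a loss of 5mC nor a gain or loss of 5hmC from PP to neurons. Of its 4 peaks of 5mC, 1 was gained, at chr12:46720706-46720855 and 98.0 kb inside, with levels of 4.17, 4.50, and 4.90, a change of 0.90. Its highest 5mC peak, 52.5 kb inside, had 5.64, 5.87, and 5.54. The 7 peaks of 5hmC changed by -0.43 to 0.48, the promoter peak shown above by -0.35. The largest 5hmC change was at a peak 69.0 kb inside, with 3.84, 3.74, and 4.24, and the highest level was at a peak labeled downstream (chr12:46410918-46411067), with 4.61, 5.14, and 5.00.

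The Celf genes had few peaks. Celf2 had 2 of 5hmC, labeled upstream by the authors but inside the RefSeq gene. One, at chr2:7114578-7114750, was gained, with levels of 4.55, 5.16, and 5.14, a change of 0.67. The other, at chr2:7153026-7153208, had the highest level, with 6.96, 6.91, and 6.47. Celf4 had 7 peaks of 5hmC inside the gene, 3 of them gained. The largest gain was 1.83 kb from the start, with 3.82, 4.12, and 5.22, a change of 1.48. The highest, 72.2 kb inside, had 6.75, 6.55, and 6.38. Its single 5mC peak had 4.01, 4.11, and 3.53 and was not called.

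Msi2, the gene with the largest decrease in expression, had all of its 18 peaks of 5mC and 23 of 5hmC inside the gene. It held 3 of the 4 gains of 5mC from PP to neurons. The largest was at chr11:88579833-88579952, 139 kb inside, with levels of 2.99, 4.01, and 4.68, a change of 1.86. At chr11:88625279-88625455, 93.1 kb inside, the levels were 2.98, 2.53, and 4.66, a change of 1.85. Both of these peaks were low in PP, with mean levels above those of 4.78% and 0.679% of all 5mC peaks. The third gain, 129 kb inside, was 0.75.

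Msi2 also lost 5mC at 2 peaks, 18.1 and 51.5 kb inside, by -1.72 and -0.97. All 3 gains thus lay further from the start than both losses. Of its 5hmC peaks, 7 were gained and 4 lost from PP to neurons. The largest gain was at chr11:88666931-88667053, 51.5 kb inside, with 2.69, 3.71, and 4.95, a change of 2.34. The largest loss was -0.99, 44.0 kb inside. The highest 5hmC peak of the 10 genes in PP was at chr11:88610670-88610850, with 7.39, 7.29, and 7.35. The highest 5mC peak of Msi2, at chr11:88669625-88669750, had 6.50, 6.52, and 6.17.

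Set beside expression, the genes that were higher in neurons lost 5mC from PP to neurons at 15 of 47 peaks (31.9%) and gained it at none, whereas other genes higher in neurons lost it at 12.9% and gained it at 4.41%. Of these 15 losses, 11 were in Rbfox1. Nova1 and Msi2, which were lower in neurons, lost 5mC at 2 of 22 peaks (9.09%, against 8.66% in other genes lower in neurons). They gained it at 4 (18.2%, against 5.37%). For 5hmC, gains were 27 of 99 peaks in the genes higher in neurons (27.3%, against 24.8% in other such genes). In Nova1 and Msi2 they were 7 of 30 (23.3%, against 20.0%). Losses of 5hmC were 7 of 99 (7.07%, against 7.45%) and 4 of 30 (13.3%, against 7.74%). The 5mC losses and all 5hmC gains and losses of Nova1 and Msi2 were in Msi2 alone. The gain share of 27.3% was set largely by Rbfox1. Without it, the genes higher in neurons gained 5hmC at 17 of 32 peaks (53.1%) and lost 5mC at 4 of 18 (22.2%). Of these 17 gains, 7 were in Rbfox3, which had 8 peaks of 5hmC. Across genes, which are not independent replicates, the median change of a gene was set against its expression change. Spearman's rho was -0.62 for 5mC and -0.32 for 5hmC (n = 9 genes each, not the same 9). The medians rested on 1 peak for Elavl2 and Celf4 in 5mC and on 2 for Celf2 in 5hmC, against 29 and 67 for Rbfox1. The negative rho for 5hmC ran opposite to the gain shares above.

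Changes in both marks were compared at 18 places where a 5mC and a 5hmC peak overlapped by at least 1 bp (22 to 153 bp), in 6 of the genes. From PP to neurons, 8 of the 18 combined a loss of 5mC with a gain of 5hmC (44.4%, against 18.8% of 6727 overlapping pairs in the series). They were in Rbfox1 (5), Msi2 (2), and Elavl4 (1), and without Rbfox1 3 of 11 pairs had both calls (27.3%). The marks of such a pair were measured in separate immunoprecipitations. Spearman's rho between the changes in both marks was -0.57 over the 18 pairs and -0.51 over all pairs, as a description.

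The pair with the largest summed change was the one 449 kb upstream of the annotated start of Rbfox1, where 5mC went from 5.07 through 4.80 to 3.28 and 5hmC from 2.52 through 4.04 to 5.68. 5hmC was thus already higher in DP, while 5mC differed mainly between DP and neurons. At the pair 236 kb inside Rbfox1 the deepest 5mC loss came with a 5hmC level of 3.84, 4.75, and 4.72, a change of 0.96. At 544 kb, 5mC went from 5.53 through 5.41 to 4.51 and 5hmC changed by 3.21.

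The other pairs of Rbfox1 with both calls lay 561 kb upstream and 415 kb inside, with 5mC changes of -0.72 and -0.72 and 5hmC changes of 2.27 and 1.08. In Elavl4, the pair 45.1 kb inside combined a 5mC change of -2.25 with a 5hmC change of 1.46. In Msi2, the pairs 18.1 and 51.5 kb inside combined 5mC changes of -1.72 and -0.97 with 5hmC changes of 1.69 and 2.34. Msi2 had these pairs although its expression was lower in neurons. At the 2 overlapping places where Msi2 gained 5mC, 5hmC changed by 0.33 and -0.05.

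**Figure D5:**
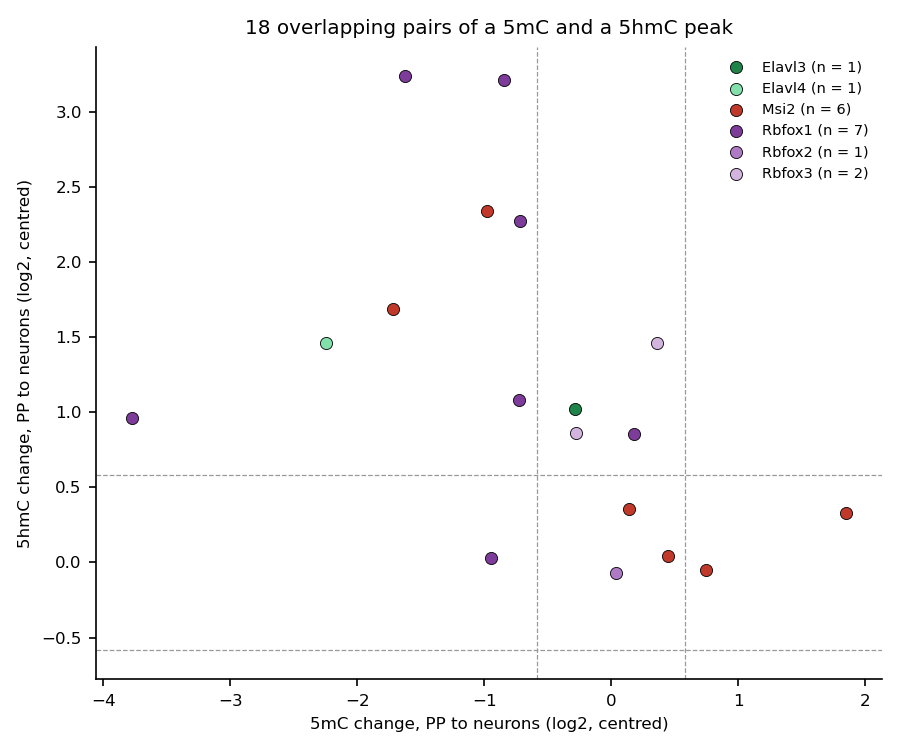
Change in 5hmC (y axis) against change in 5mC (x axis) from PP to neurons (log2, centered) at the 18 overlapping pairs, colored by gene; dashed lines mark 1.5-fold. The 8 pairs at the upper left combine 5mC loss and 5hmC gain, and 2 pairs of Msi2 at the right have a 5mC gain without a 5hmC call.

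Few peaks were near a start. Within 5 kb of the annotated start there were 1 peak of 5mC, a lost peak of Elavl3 already named, and 6 of 5hmC. Of these 6, 4 were gained and none lost, against 22.1% and 7.71% of all 5hmC peaks. The shares over all peaks within 5 kb of a start were not computed, so the counts only describe these genes. These gains were in Elavl3 (2), Celf4 (1), and Rbfox3 (1, 1.80 kb upstream, with 4.46, 4.59, and 5.22).

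Other RNA-binding protein genes were taken from a list of 39, of which 31 had a peak of either mark. Of these, 13 were higher and 7 lower in neurons by at least 1.5-fold. From PP to neurons they lost 5mC at 12 of 112 peaks (10.7%) and gained it at 5 (4.46%), and they gained 5hmC at 30 of 129 (23.3%) and lost it at 8 (6.20%), close to the shares of all peaks. The largest expression changes were those of Celf6 (10.2, 68.8, and 877.9), Srrm3 (61, 697.1, and 4828), and Mbnl3 (603.7, 347.9, and 16.7). Celf6, a paralog of Celf4, had a single call, a gain of 5mC, among its 5 peaks of 5mC and 4 of 5hmC. Srrm3, a neuronal microexon regulator, had 1 gain among 3 peaks of 5mC and no call at its 1 peak of 5hmC. Mbnl3, of the muscleblind splicing factors, had a single 5mC peak, with a change of -0.40. Of the genes outside this rule, chosen after their values were seen, Srrm4, a paralog of Srrm3 (2564.1, 18962.4, and 30590.3), lost 5mC at 3 of 10 peaks and gained 5hmC at 11 of 21. Khdrbs3, a STAR family splicing regulator (2347.7, 2958.8, and 5397.8), lost 5mC at 3 of 8 and gained 5hmC at 6 of 19. Srrm4 and Khdrbs3 together thus held many of the 12 losses of 5mC and 30 gains of 5hmC counted above. The shares without them are not given.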

How the data were processed

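MeDIP and hMeDIP libraries (250 bp fragments, 15 PCR cycles, 75 bp single reads) were aligned by the authors to mm10 with BWA (0.7.8-r455 per the labels) and peaks were called with SICER (1.1). According to the methods, peaks found in all replicates were merged, peaks overlapping repeats were left out, levels were normalized (TMM) in DiffBind, and peaks were annotated to the nearest start with HOMER (4.7). The deposited level columns hold log2 values averaged over replicates by the authors. The deposited expression and distance columns hold a score each, an expression value of unnamed scale and a distance in bp. Another 10 columns per table hold the authors' own comparisons (fold changes and p-values) and were not used. Depth is unknown from the tables, and the labels give 1 sample per cell type, mark, and IP or input, although the methods state replicates.

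From these, changes were computed as differences of levels, centered on the median of all peaks, with a limit of 1.5-fold, and expression changes as log2 of values plus 1. No peak was filtered. Peaks of both marks were paired at an overlap of at least 1 bp. The design assumed peak sequences of the same build, but no genome was used here, so that base composition and peak sequences were not analysed. Promoter windows and gene spans came from RefSeq tables (GRCm38.p6, the assembly called mm10), which held windows for 8 of the 10 genes. Exons and introns were not analysed here. Whether peak starts count from 0 or 1 could not be told, so the capitals of the printed sequence may be off by 1 base.

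The named peaks were, for each gene and mark, that with the largest change from PP to neurons and that with the highest mean level, besides all overlapping pairs with both calls and the 3 other genes with the largest expression change. Further peaks were named after their values were seen. The genes, lists, and limits were chosen with earlier results of these data known. Alternatives were a 2-fold limit, levels without centering, peaks inside the gene, peaks above the median level, leaving out Rbfox1, a stricter overlap, and other treatments of expression. Calculations were tested on simulated data and used python 3.11.15, pandas 2.3.3, numpy 2.4.6, scipy 1.17.1, and matplotlib 3.10.9.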

Additional observations from a re-analysis of the deposited data

How the results depend on the processing

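No paired analysis was possible because the tables hold 1 mean per cell type and no result comes from a test. Counts of calls are given in the order PP to DP, DP to neurons, and PP to neurons. With a 2-fold limit, 5mC losses numbered 3, 7, and 7 and gains 1, 2, and 2 of 69 peaks. Of the 129 peaks of 5hmC, losses then numbered 0, 0, and 1 and gains 5, 13, and 20. Overlapping pairs with both calls then numbered 3 and genes lower in neurons 1. No share over all peaks is given at this limit, so these counts do not show whether the differences from all peaks remain. With peaks above the median level only, 23 peaks of 5mC and 77 of 5hmC were left. Losses of 5mC then numbered 0, 2, and 1 (0.00%, 8.70%, and 4.35%, against 1.21%, 3.34%, and 3.99% of all such peaks). Gains of 5mC numbered 0 in each step (against 1.27%, 1.86%, and 2.23%). Losses of 5hmC numbered 4, 3, and 7 (5.19%, 3.90%, and 9.09%, against 1.90%, 3.81%, and 4.36%). Gains of 5hmC numbered 3, 8, and 13 (3.90%, 10.4%, and 16.9%, against 4.53%, 7.81%, and 13.1%). Without Rbfox1, 5mC losses numbered 4, 4, and 6 of 40 peaks and gains from PP to DP 1 of 40. Of 62 peaks of 5hmC, losses in the steps to neurons then numbered 2 (3.23%, against 3.10% with Rbfox1) and 5 (8.06%, against 8.53%). Gains of 5hmC from PP to DP numbered 8 (12.9%, against 12.4%), so these 5hmC shares were nearly the same with fewer peaks. Pairs with both calls numbered 3 of 11. With peaks inside the gene only, 5mC losses in the steps to neurons numbered 8 and 10 of 44 peaks, and 5hmC losses from DP to neurons 2 of 78.

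The median change of the 5mC peaks from PP to neurons, -0.14, was -0.31 without centering, -0.02 above the median level, and 0.05 without Rbfox1, and that from DP to neurons, -0.04, was -0.22 without centering. The median change of 5hmC from PP to neurons, 0.04, was 0.16 inside the gene, -0.12 above the median level, and 0.31 without Rbfox1. From DP to neurons, 0.02, it was 0.17 inside the gene and 0.24 without Rbfox1, and from PP to DP, -0.08, it was 0.04 without Rbfox1. The median 5hmC change of Elavl3 reversed to -0.24 above the median level, where 1 peak was left. These alternatives change the limit or the peaks used, and further causes were not tested. In peaks inside the RefSeq span of the genes, a setting chosen after seeing the data, 5mC losses from PP to neurons numbered 15 of 60 and 5hmC gains 31 of 114. No share over all peaks is given for this setting. With an overlap of at least 50% of the shorter peak, 7 of 17 pairs had both calls. Leaving out repeated coordinates removed none of the 69 and 129 peaks, so that this setting could change no count. The 8 genes higher in neurons were past the limit under each treatment of expression.

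The main limits are the replicate values and depth that the tables do not give, so that no difference was set against an error, and the low levels of most called peaks. Fewer cells with a mark and a lower level per cell cannot be told apart in these mean levels.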
